A study of Mus musculus with 43 samples.

Results

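The genes Tbx1, Tbx2, Tbx3 and Tbx4 encode T-box transcription factors and are 4 of the 54532 genes counted in brain endothelial cells (EC) of inbred mice. They were selected by gene symbol, and with their levels by strain in these libraries already known, in particular the lower level of Tbx1 in recently wild-derived strains. Levels by strain and by origin of the strain are therefore given as a description, with no test. The comparisons of sex, brain region and sample title were tested, although earlier results of these data were known when the members were chosen.

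EC were sorted from 2-month-old mice as CD45-, CD11b- and CD31+ cells, and total RNA was sequenced after rRNA depletion in 43 libraries. The recently wild-derived strains were CAST/EiJ (6 libraries) and WSB/EiJ (6), and the long-inbred strains were 129S1/SvImJ (9), A/J (5), C57BL/6J (6), DBA/2J (5) and NOD/ShiLtJ (6). There were 16 female and 27 male libraries, 21 of cortical and 22 of hippocampal EC, and 29 titled high and 14 titled low, of which 1 low library was female. The labels do not explain high and low and do not give the mouse, so that libraries of a strain may come from the same animals and p-values measure only the spread between libraries. All strains were untreated as far as the labels tell, and CD31 can also be carried by cells other than EC. Totals ran from 1626534 to 49372356 counts (median 5790701). They were larger in females (median 21242058) than in males (median 5257353), and WSB/EiJ libraries had the lowest median total of any strain (2721155). The share of counts on 3 rRNA-like genes (Gm23935, Gm42418 and Gm26917) was 1.59 to 12.1% in females and 12.97 to 29.3% in males, with no overlap. All 20 endothelial markers on the marker list were detected, and their mean level was 9.12 ± 0.33 on the log2(CPM + 1) scale (SD, n = 43), against 6.83 ± 0.61 for 10 pericyte markers, 6.27 ± 0.68 for 10 astrocyte markers and 0.997 ± 0.45 for 10 microglia markers. CPM give counts of a gene relative to the total of its library, scaled by TMM (a correction for differences in RNA composition between libraries).

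T-box proteins bind DNA through the conserved T-box domain and switch target genes on or off during the development of the heart, limbs, pharyngeal organs and vessels. Tbx1 is required for the pharyngeal arches and the cardiac outflow tract and acts in endothelial cells, where Dll4, a Notch ligand, and Flt4, a receptor for vascular endothelial growth factor, are among the genes it is known to regulate. Tbx2 and Tbx3 are closely related repressors that hold back cell cycle inhibitors, and Tbx4 is known from the hindlimb bud and from the mesenchyme of the lung.

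Tbx1 (ENSMUSG00000009097) lies on the minus strand of chromosome 16 from 18580979 to 18590671, Tbx3 (ENSMUSG00000018604) on the plus strand of chromosome 5 from 119670669 to 119684724, and Tbx2 (ENSMUSG00000000093) and Tbx4 (ENSMUSG00000000094) beside each other on the plus strand of chromosome 11, from 85832551 to 85841948 and from 85886422 to 85916097 (mm10, GENCODE M21). The members code for the same domain, so their coding sequences were set side by side to see how far reads of one could be counted for another. The best shared stretch of 60 bases within 1 exon lies in the part that codes for the T-box. It is given below from the transcript with the longest coding sequence of each gene, and capitals mark the 39 bases that all 4 genes share.
Tbx1: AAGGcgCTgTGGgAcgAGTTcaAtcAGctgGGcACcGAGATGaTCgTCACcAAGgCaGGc
Tbx2: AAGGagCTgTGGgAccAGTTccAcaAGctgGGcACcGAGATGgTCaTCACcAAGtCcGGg
Tbx3: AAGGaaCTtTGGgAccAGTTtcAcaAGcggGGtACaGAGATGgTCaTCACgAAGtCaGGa
Tbx4: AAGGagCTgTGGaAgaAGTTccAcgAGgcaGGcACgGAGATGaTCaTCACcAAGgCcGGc
The stretch lies in exon 1 of Tbx1 (chr16:18586538-18586597, minus strand), exon 1 of Tbx2 (chr11:85833440-85833499), exon 1 of Tbx3 (chr5:119672343-119672402) and exon 3 of Tbx4 (chr11:85890890-85890949). Tbx2 shared 51 of the 60 bases with Tbx3, Tbx1 shared 44 and Tbx4 shared 43. Differences were spread through the stretch, and the longest run of identical bases between transcripts of any pair of members was 18 (Tbx1 and Tbx2). None of the 50-base windows of Tbx1, Tbx2 and Tbx4 transcripts was found in a transcript of any other gene. Of 6660 such windows of Tbx3, 67 (1.01%) were found in 1 other gene, the antisense transcript Tbx3os1, which overlaps Tbx3 by 697 bases. The kit marks strand, but the strand setting of the counting is not given in the sources used here, so reads in this overlap cannot be told apart. Tbx3os1 had 6.28 ± 7.68 CPM (SD, n = 43), against 196 ± 70.6 for Tbx3.

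Tbx1 and Tbx4 were the members that stood close to 0 in some strains, so the sequences before their transcript starts are shown as they stand in the reference genome, which is that of C57BL/6J. Both genes were counted in libraries of that strain, and the sequence of the other strains was not analysed here. RefSeq promoter sequences (GRCm38.p6) were at hand for Tbx1, with 2 transcript starts, and for Tbx4. The table's start of Tbx4, at 85896765, lies inside the gene as GENCODE M21 gives it and after the T-box stretch shown above, and the gene's first start is not covered. In the 250 bases before each start, capitals mark matches on either strand to the GC box GGGCGG, the TATA box TATAAA and the T-box half-site GGTGTGA, none of which overlap here.
Tbx1 upstream start: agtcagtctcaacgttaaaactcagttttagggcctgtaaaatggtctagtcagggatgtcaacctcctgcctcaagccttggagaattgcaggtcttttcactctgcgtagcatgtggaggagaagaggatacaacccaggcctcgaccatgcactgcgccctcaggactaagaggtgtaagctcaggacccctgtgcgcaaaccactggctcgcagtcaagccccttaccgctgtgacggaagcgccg
Tbx1 downstream start: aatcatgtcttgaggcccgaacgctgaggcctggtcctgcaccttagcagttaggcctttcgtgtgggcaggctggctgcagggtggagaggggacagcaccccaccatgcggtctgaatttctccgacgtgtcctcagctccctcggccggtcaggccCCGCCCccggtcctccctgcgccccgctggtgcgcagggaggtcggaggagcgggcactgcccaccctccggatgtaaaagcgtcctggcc
Tbx4 internal start: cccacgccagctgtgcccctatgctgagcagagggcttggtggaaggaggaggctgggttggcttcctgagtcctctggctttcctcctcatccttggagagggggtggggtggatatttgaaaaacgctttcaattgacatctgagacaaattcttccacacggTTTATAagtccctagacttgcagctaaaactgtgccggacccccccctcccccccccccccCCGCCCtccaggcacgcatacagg
They lie at chr16:18590672-18590921 and chr16:18588900-18589149 (both minus strand) and at chr11:85896515-85896764 (plus strand). The upstream start of Tbx1 held no match, its downstream start held 1 GC box, and Tbx4 held 1 GC box and 1 TATA box. Among 32851 promoter stretches of the same length, 32.7% held the GC box, 12.4% the TATA box and 3.33% the T-box half-site. The stretches were 54.4%, 67.2% and 58.4% G and C, against a median of 52.4% over all promoters.

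The genes differed in how they varied over strains. Tbx3 was counted in every library and was the most even, with 196 ± 70.6 CPM over all 43 libraries (SD, 36.0% of the mean). Tbx1 varied by 76.6% of its mean, Tbx2 by 59.3% and Tbx4 by 129%. Per kilobase of exon, the mean level was highest for Tbx3 (29.6 CPM per kb), followed by Tbx1 (16.5), Tbx2 (8.01) and Tbx4 (2.33). In bulk libraries, fewer cells that carry a transcript and less of it in each cell cannot be told apart.

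**Figure D1:**
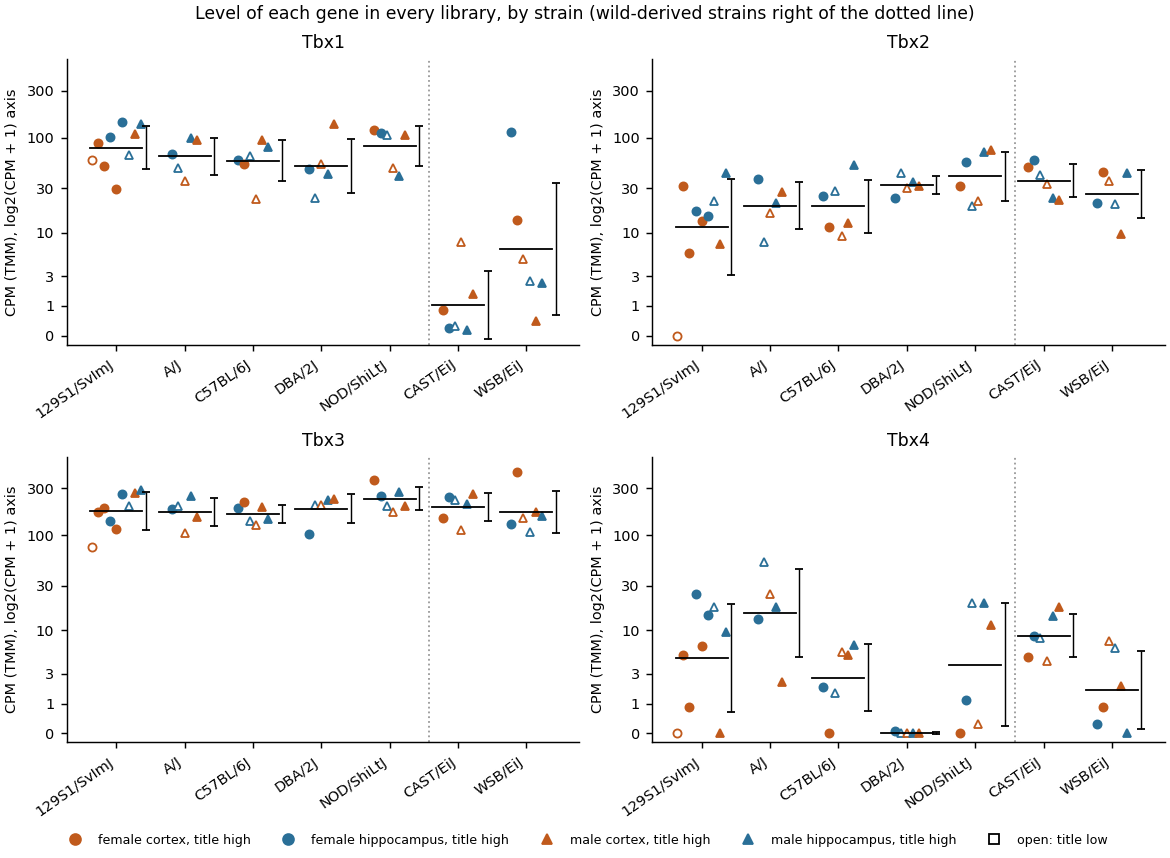
CPM of Tbx1, Tbx2, Tbx3 and Tbx4 in each of the 43 libraries, by strain, on a log2(CPM + 1) axis. Circles are female, triangles male, orange cortex, blue hippocampus, filled symbols titles high and open symbols titles low, and the line and bar give each strain's mean and SD on this axis. All 6 CAST/EiJ and 5 of 6 WSB/EiJ libraries lay below every long-inbred library for Tbx1, and all 5 DBA/2J libraries lay at or near 0 for Tbx4.

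Tbx1 was present in every library of the 5 long-inbred strains, close to 0 in CAST/EiJ, and below every long-inbred library in 5 of 6 libraries of WSB/EiJ. In the 31 long-inbred libraries Tbx1 ran from 23.3 to 143 CPM (median 67.0). In CAST/EiJ it ran from 0.145 to 7.78 CPM (median 0.541), which came from 1 to 28 counts per library. The 6 CAST/EiJ libraries all lay below the lowest long-inbred library, and Tbx1 was the only member with this pattern. Of the 29120 genes tested, 0.0584% had it, and a gene at 0 in any long-inbred library could not. Nothing is read from that share, because Tbx1 was chosen with its levels by strain known. The CAST/EiJ mean was 1.81 ± 2.98 CPM (SD, n = 6), 2.39% of the long-inbred mean of 75.8 ± 35.1 (n = 31).

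WSB/EiJ did not form 1 group for Tbx1. The male WSB/EiJ libraries had 5.03 CPM (cortex, low), 2.62 (hippocampus, low), 0.403 (cortex, high) and 2.45 (hippocampus, high), and the female cortex library had 13.8. The female hippocampus library had 115 CPM from 472 counts, above the long-inbred median. Without that library the WSB/EiJ mean was 4.87 ± 5.27 CPM (SD, n = 5), 6.43% of the long-inbred mean, and with it 23.2 ± 45.2 (n = 6).

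To see whether that library also differed from its strain elsewhere, genes were listed that the other 5 WSB/EiJ libraries held at no more than 10% of the long-inbred mean, with a long-inbred median of at least 10 CPM and a count in every long-inbred library. There were 9 such genes beside Tbx1, a list chosen after the values were seen. In the female hippocampus library 5 of them stayed under 10% of the long-inbred mean, among them the surface antigen Ly6c1 (7.55 CPM against a long-inbred mean of 421) and the flavin monooxygenase Fmo1 (0.975 CPM against 46.2). The other 4 stood at 50% or more of it, among them the endothelial chemotaxis regulator Ecscr (48.98 CPM against 28.1) and the ribosomal protein gene Rps4l (38.3 against 23.2). The lowest long-inbred library had 169 CPM of Ly6c1 and 8.89 of Fmo1, but 1.70 of Ecscr and 0.165 of Rps4l. Low values of Ecscr and Rps4l were therefore not particular to WSB/EiJ. The library shared some low genes with its strain and held others, Tbx1 included, at 50% or more of the long-inbred mean. What sets it apart, including whether it carries the right label, was not tested.

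Between origins, the fitted difference of Tbx1 was -2.60 on the log2 scale (wild-derived minus long-inbred, SE 0.49, 12.5 against 75.8 CPM), and it was -4.68 without the WSB/EiJ female hippocampus library. In that contrast 0.749% of the 29120 genes were called, a share from which nothing is read here because the contrast chose Tbx1. Tbx2 stood at 0.31 (SE 0.35, 33.7 ± 14.4 against 27.2 ± 18.1 CPM) and Tbx3 at 0.015 (SE 0.17, 198 ± 92.3 against 196 ± 62.1). Tbx4 stood at -0.42 (SE 0.76, 6.32 ± 5.62 against 8.57 ± 11.6 CPM), with medians of 5.59 and 5.24 CPM, so that the groups overlapped for these 3 genes, and the sign of each turned in some of 17 other fits. On the log2(CPM + 1) scale, the endothelial markers averaged 8.98 ± 0.38 over the wild-derived libraries and 9.18 ± 0.30 over the long-inbred ones, and the ranges overlapped (8.35 to 9.49 and 8.48 to 9.64). The wild-derived strains were not alike in this, with 9.26 ± 0.30 in CAST/EiJ and 8.70 ± 0.20 in WSB/EiJ. Of the 20 endothelial markers, 1 was called between origins, Ly6c1, and the median difference of the 20 was 0.0026. Ly6c1 had a mean of 3.09 CPM in the WSB/EiJ libraries other than female hippocampus, against 421 in long-inbred libraries. Its part in the WSB/EiJ mean was not tested. Pericyte markers averaged 6.56 ± 0.24 in CAST/EiJ, 7.55 ± 0.48 in WSB/EiJ and 6.75 ± 0.58 in long-inbred libraries, arterial markers 5.03 ± 0.71, 3.71 ± 0.30 and 4.59 ± 0.64, and smooth muscle markers 4.13 ± 0.45, 2.84 ± 0.41 and 3.74 ± 0.46. Their part in the strain levels of the members was not tested.

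Among long-inbred strains, Tbx1 was highest in NOD/ShiLtJ (88.7 ± 34.6 CPM, n = 6), followed by 129S1/SvImJ (87.6 ± 39.3, n = 9), A/J (69.1 ± 27.8, n = 5), C57BL/6J (62.8 ± 24.7, n = 6) and DBA/2J (61.1 ± 44.8, n = 5). Each neighbour in this order differed by less than the larger SD, and their ranges overlapped. The 5 A/J libraries had 68.0, 48.3, 35.9, 99.8 and 93.8 CPM, and the 5 DBA/2J libraries 47.7, 23.8, 53.2, 42.1 and 139. The DBA/2J mean leaned on its male cortex library titled high, the last of these values.

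Tbx4 was the sparsest member and was close to 0 in DBA/2J. The 5 DBA/2J libraries held 3, 0, 0, 0 and 0 counts of 71515209 counts in all, and the 3 counts were in the deepest library of the strain. Against the mean of 8.98 CPM in the other 6 strains, 3 counts stood 235-fold lower (exact Poisson 95% interval 80.5 to 1141, which covers counting error only). Tbx4 was also at 0 counts in 5 further libraries, of 129S1/SvImJ (2), C57BL/6J (1), NOD/ShiLtJ (1) and WSB/EiJ (1), and at 3 or fewer counts in 13 of 43 libraries in all. A count of 3 corresponds to 0.0537 to 1.84 CPM, depending on the library.

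A/J had the highest mean of Tbx4, and its 5 libraries had 13.4, 52.9, 24.8, 17.9 and 2.28 CPM (22.3 ± 18.98, SD, n = 5). CAST/EiJ followed with 4.45 to 18.2 CPM (9.80 ± 5.45, n = 6) and counts in every library, although Tbx1 was close to 0 there. The next strains were 129S1/SvImJ (8.92 ± 8.75, n = 9), NOD/ShiLtJ (8.79 ± 9.61, n = 6), C57BL/6J (3.54 ± 2.74, n = 6) and WSB/EiJ (2.84 ± 3.297, n = 6). Neighbours in this order overlapped and differed by less than the larger SD. DBA/2J, the last in the order, overlapped with WSB/EiJ, which also had a library at 0.

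Tbx2, the neighbour of Tbx4 on chromosome 11, did not share the low level in DBA/2J. Its 5 DBA/2J libraries had 24.0, 43.3, 30.5, 34.7 and 31.8 CPM, the narrowest spread of any strain (32.9 ± 7.01, SD, n = 5). Tbx2 was highest in NOD/ShiLtJ (45.8 ± 24.6, n = 6) and CAST/EiJ (38.3 ± 14.4, n = 6). It was lowest in 129S1/SvImJ (17.4 ± 13.5, n = 9), and WSB/EiJ (29.2 ± 14.1), C57BL/6J (23.1 ± 16.1) and A/J (22.1 ± 11.2) lay between. All neighbours in this order overlapped.

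1 library of 129S1/SvImJ, the only female library titled low, held 0 counts of Tbx2 and 0 of Tbx4 among 27702669 counts, and had the lowest Tbx3 of all 43 libraries (76.4 CPM). For its depth, 0 counts allow up to 0.104 CPM, a limit that covers counting error only. The library had counts in 11852 genes, the fewest of any female library. A C57BL/6J female cortex library with 3892336 counts in all had 12464. The part of this in its zeros and in its low Tbx3 was not tested. Tbx1 was at 58.5 CPM there, from 1688 counts, within the range of its strain (29.9 to 143, n = 9).

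Tbx3 had overlapping ranges in all 7 strains. Its mean was highest in NOD/ShiLtJ (244 ± 69.1 CPM, n = 6) and lowest in C57BL/6J (169 ± 36.1, n = 6). Between them lay CAST/EiJ (202 ± 58.5), WSB/EiJ (194 ± 124), DBA/2J (194 ± 52.8), 129S1/SvImJ (191 ± 73.2) and A/J (179 ± 53.3). The WSB/EiJ spread came from its female cortex library, which had 442 CPM against 108 to 175 in the other 5.

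Female and male libraries were compared to see whether the members followed sex, with which 2.85% of the 29120 genes differed (830 genes, 89.8% of them higher in females, or 585 genes and 73.5% with DESeq2 size factors). None of the 4 members passed the test. Tbx1 ran from 0.190 to 143 CPM (median 58.9) in the 16 female libraries and from 0.145 to 139 (median 48.3) in the 27 male libraries, and the ranges of all 4 members overlapped between the sexes. The fitted differences (female minus male, log2, edgeR's quasi-likelihood test with Benjamini-Hochberg adjustment) were 0.31 for Tbx1 (SE 0.44, adjusted p = 0.731), -0.11 for Tbx2 (SE 0.33, adjusted p = 0.901), 0.075 for Tbx3 (SE 0.16, adjusted p = 0.841) and -0.86 for Tbx4 (SE 0.70, adjusted p = 0.499). The 95% intervals still held differences of 1.18 for Tbx1, -0.77 for Tbx2, 0.39 for Tbx3 and -2.25 for Tbx4. The median of all genes was -0.12, and -0.24 with DESeq2 size factors, under which Tbx3 stood at -0.069. Sex moved together with depth and with the share of rRNA-like counts given above. With that share as a covariate, the difference was -0.60 for Tbx1, 1.16 for Tbx2 and -0.51 for Tbx4, and no member passed.

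**Figure D2:**
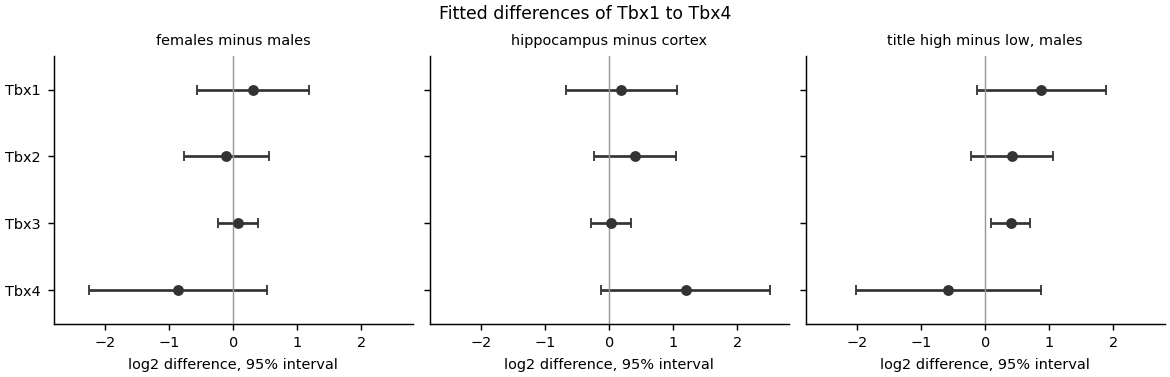
Fitted log2 differences of Tbx1 to Tbx4 (points) with 95% intervals (bars) between females and males, between hippocampus and cortex, and between male libraries titled high and low. Every interval includes 0 but that of Tbx3 between titles (0.10 to 0.71), whose adjusted p was 0.320.

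Hippocampal and cortical EC did not differ in any member past the threshold, and 0.0755% of the 29120 genes were called in this comparison. Tbx4 had the largest fitted difference, 1.19 (hippocampus minus cortex, log2, SE 0.67, 95% interval -0.13 to 2.52, adjusted p = 0.669). It ran from 0 to 52.9 CPM (median 8.41) in 22 hippocampal and from 0 to 24.8 (median 2.28) in 21 cortical libraries, which overlap over most of their range, and it was higher in hippocampus in 11 of 18 strata of the same strain, sex and title, 2 of which were at 0 in both regions. The difference was 0.41 for Tbx2 (SE 0.32, adjusted p = 0.669), 0.19 for Tbx1 (SE 0.44, adjusted p = 0.935) and 0.023 for Tbx3 (SE 0.16, adjusted p = 0.983), and these were higher in hippocampus in 11, 9 and 9 of the 18 strata. The region difference of the members in females less that in males was 0.74 for Tbx1 (SE 0.87), 0.055 for Tbx2 (SE 0.66), -0.35 for Tbx3 (SE 0.32) and 0.79 for Tbx4 (SE 1.34) on the log2 scale. No member passed (interaction in edgeR, adjusted p = 0.9999 for each), and the interaction was called for 1 of 29120 genes, with 1077 at an unadjusted p under 0.05.

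Male libraries titled high and low were compared within the males, where 1.06% of 27529 genes differed. Tbx3 was the member with the most regular difference. It ran from 148 to 290 CPM (median 217) in the 14 libraries titled high and from 106 to 230 (median 174) in the 13 titled low. Those titled high were above those titled low of the same strain and region in 12 of 13 strata, the exception being CAST/EiJ hippocampus. The fitted difference was 0.40 (SE 0.15, 95% interval 0.10 to 0.71, unadjusted p = 0.0106, adjusted p = 0.320), which failed the threshold after adjustment over all genes, and its adjusted p was 0.0443 by DESeq2.

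Tbx1 stood at 0.88 in the same comparison (SE 0.50, 95% interval -0.12 to 1.88, adjusted p = 0.652). In the long-inbred males it ran from 40.1 to 139 CPM (median 97.7) in 10 libraries titled high and from 23.3 to 106 (median 49.05) in 9 titled low. The library titled high was the higher one in 8 of 9 long-inbred strata, all but NOD/ShiLtJ hippocampus. The 4 wild-derived strata came from 1 to 28 counts per library, with 1 against 1 count in CAST/EiJ hippocampus and 4 against 5 in WSB/EiJ hippocampus, and no direction is read from them. In long-inbred males alone, a choice made after the data were seen, the difference was 0.85 (SE 0.26, adjusted p = 0.120). Tbx2 stood at 0.42 (SE 0.32, adjusted p = 0.652) and Tbx4 at -0.57 (SE 0.72, adjusted p = 0.741), and the library titled high was higher in 9 and 4 of the 13 strata. For Tbx4, 2 of these strata, both of DBA/2J, were at 0 on either side.

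Markers of several cell types moved with the title, where 1.06% of all genes did. Of the 20 endothelial markers, 4 rose in libraries titled high (Cldn5, Esam, Itm2a and Slc2a1) and 1 fell (Erg), and their mean was 9.25 ± 0.35 against 8.93 ± 0.17 on the log2(CPM + 1) scale. Of 10 astrocyte markers 3 fell (Aldoc, Slc1a2 and Slc4a4), of 6 neuronal markers 2 fell (Nefl and Snap25) and of 10 pericyte markers 1 fell (Rgs5). The neuronal mean was 4.01 ± 0.68 in libraries titled high and 5.06 ± 0.56 in those titled low. The astrocyte mean ran from 5.11 to 6.87 in libraries titled high and from 6.25 to 7.93 in those titled low, and no astrocyte or neuronal marker was at 0 in either group. The part of these other transcripts in the values of Tbx1 and Tbx3 was not tested.

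**Figure D3:**
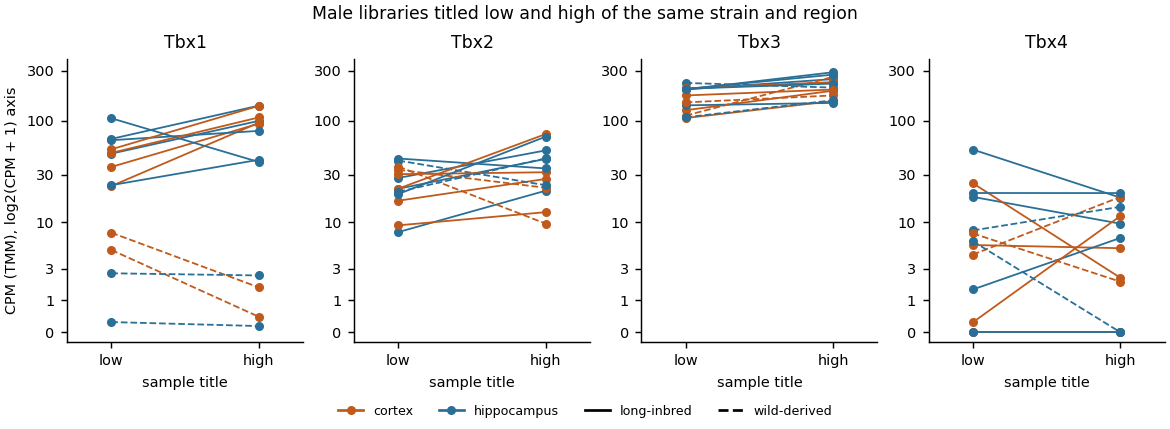
CPM of each gene in male libraries titled low (left) and high (right) of the same strain and region, joined by a line, on a log2(CPM + 1) axis. Orange is cortex, blue hippocampus, solid lines long-inbred and dashed lines wild-derived strains. For Tbx3 12 of 13 lines rise, and for Tbx1 8 of 9 solid lines rise, while its dashed lines rest on 1 to 28 counts per library.

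The other 13 T-box genes on the list gave the setting for the members. Of these, 10 passed the filter on low counts and 3 (Tbx20, Tbx21 and Tbx22) had 0 counts in every library. Mga, which pairs a T-box with a domain for binding the partner Max, was the highest of them at 8.83 CPM per kb, between Tbx1 and Tbx2. Tbx15 (2.68 CPM per kb), known from limb and muscle development, and Tbx18 (2.66), known from mural cells of vessels, were close to Tbx4, whereas Tbx5, the neighbour of Tbx3 on chromosome 5, had at most 3 counts in any library. None of the 10 tested genes passed in any of the 4 comparisons. Their median difference between origins was 0.41 against -0.38 over all genes. Of the 13 listed genes 8 had a mean under 1 CPM, the 3 untested ones included, so no direction is read from these medians.

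**Figure D4:**
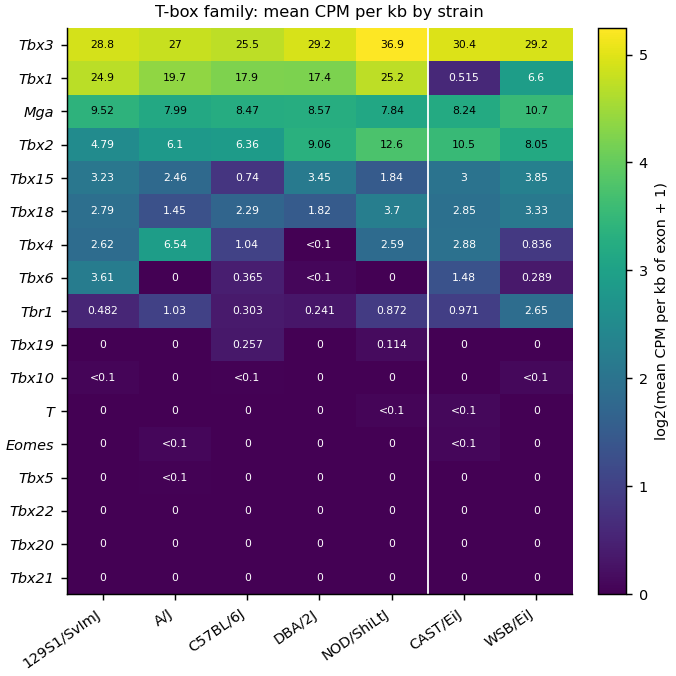
Mean CPM per kilobase of exon of the 17 T-box genes in each strain, written in each cell and coloured on a log2(mean CPM per kb + 1) scale, with the wild-derived strains right of the white line. Tbx3 was the highest in every strain, at 25.5 to 36.9 CPM per kb, and Tbx1 fell from 17.4 to 25.2 in long-inbred strains to 0.515 in CAST/EiJ and 6.603 in WSB/EiJ.

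Genes known to act with or under the members were then examined. Of 19 genes on the list for Tbx1, 18 were tested. The list was drawn up with earlier results of these data known, so its counts are no independent evidence. Between origins 1 of the 18 passed, where 0.749% of all genes did. This was Dll4, which rose by 0.86 on the log2 scale in wild-derived libraries (SE 0.19, adjusted p = 0.00886 by edgeR). Dll4 ran from 129 to 433 CPM (median 186) in 12 wild-derived libraries, highest in the WSB/EiJ female hippocampus library where Tbx1 was not low, and from 36.7 to 302 (median 106) in 31 long-inbred libraries, and its mean was 202 ± 28.5 in CAST/EiJ and 219 ± 110 in WSB/EiJ. The call of Dll4 held in 8 of 17 other fits and ended, among others, without the WSB/EiJ female hippocampus library (0.71, adjusted p = 0.0659). Flt4, the other vascular gene named above, had 238 ± 66.5 CPM (SD, n = 43) and a difference of 0.11 (SE 0.16, adjusted p = 0.773 by edgeR). The median of the list was 0.11 against -0.38 over all genes. Of the 19 listed genes 7 had a mean under 1 CPM, so no direction is read from these medians. The forkhead gene Foxc1 differed by 0.12 (SE 0.16, adjusted p = 0.767) and the chromatin remodeller Chd7 by -0.50 (SE 0.21, adjusted p = 0.532).

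On the same list, 2 genes passed between the sexes, where 2.85% of all genes did. The Notch target Hes1 rose in females by 0.91 (SE 0.23, adjusted p = 0.00972 by edgeR; 70.7 ± 44.7 against 37.6 ± 19.9 CPM), as did Ash2l, a subunit of histone methyltransferases, by 0.93 (SE 0.27, adjusted p = 0.0404; 60.4 ± 29.2 against 31.6 ± 17.0). Foxc1 rose in males titled high by 0.70 (SE 0.14, adjusted p = 0.00357; 268 ± 54.1 against 166 ± 40.4). The call held in 10 of 17 other fits for Hes1, in 3 of 17 for Ash2l and in 13 of 15 for Foxc1, which missed only within a single region. Over these fits by edgeR or DESeq2, the adjusted p reached 0.558 for Hes1 and 0.829 for Ash2l. Sex moved together with depth and with the share of rRNA-like counts, so their parts in the differences of Hes1 and Ash2l cannot be told apart. None of the 18 genes passed between regions, and Fgf8, an early Tbx1 target, had 0 counts in every library.

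Of 20 genes on the list for Tbx2, Tbx3 and Tbx4, drawn up in the same way, 17 were tested. Sox9, a transcription factor of cartilage and glia, fell by 1.28 on the log2 scale in wild-derived libraries (SE 0.30, adjusted p = 0.0116 by edgeR). It ran from 4.76 to 39.4 CPM (median 16.2) in 12 wild-derived and from 1.53 to 78.7 (median 40.5) in 31 long-inbred libraries. The libraries also held astrocyte transcripts, and which cells carried Sox9 was not tested. The call of Sox9 held in 11 of 17 other fits. No gene of this list passed between sexes or regions. Ndrg1, a repressed target of Tbx2 and the most abundant gene of the list (533 ± 169 CPM), Gja1 (99.3 ± 39.8), a gap junction gene, and Cdkn1a (48.6 ± 37.5), a cell cycle inhibitor, passed in no comparison.

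The genes beside the members on the chromosome were mostly low in these EC. To the left of Tbx1 lay Rtl10 (0.943 CPM) and Gnb1l (1.63 CPM), with 2.22 ± 3.20 CPM of Gnb1l in wild-derived and 1.41 ± 2.21 in long-inbred libraries, and to its right 4930588K23Rik (0.0582) and AC133488.1 (0.411). The neighbours of Tbx2 and Tbx4 other than each other were Gm23473 (0.203), 2610027K06Rik (1.05), Brip1 (0.456) and Brip1os (17.7 ± 9.89). Those of Tbx3 were Gm43399 (0.0528), Gm16063 (0.117), Tbx5 (0.0123) and Rbm19, an RNA-binding protein gene at 27.5 ± 18.9 CPM. Most of these were too low for a comparison, and none passed between origins. Brip1os was not low in DBA/2J, where Tbx4 was (14.6 CPM).

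Over the 43 libraries, the genes whose log2(CPM + 1) followed a member most closely were found by Pearson's r among 14615 genes with a mean of at least 1 CPM, as a description. For Tbx1 they were Itih5 (r = 0.84), the ceruloplasmin gene Cp (0.78), 9930111J21Rik2 (0.77), the fibronectin gene Fn1 (0.77) and Colgalt2 (0.74), which encodes a collagen-modifying enzyme. Their likeness was one of strains: after strain means were taken off, r was 0.16, 0.22, 0.15, 0.46 and 0.15. Itih5, a gene for a protein that binds hyaluronan, had 769 ± 212 CPM in long-inbred libraries, 25.4 ± 11.6 in CAST/EiJ and 234 ± 65.8 in WSB/EiJ. In the WSB/EiJ female hippocampus library Itih5 was at 276 CPM, within the range of the other 5 WSB/EiJ libraries (145 to 332), whereas Tbx1 was not. There 9930111J21Rik2 (2.68 CPM) was also within their range (0 to 45.8). Fn1 was above it (3396 CPM against at most 3381). Cp (39.2 against at least 49.8) and Colgalt2 (17.3 against at least 30.9) were below it.

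**Figure D5:**
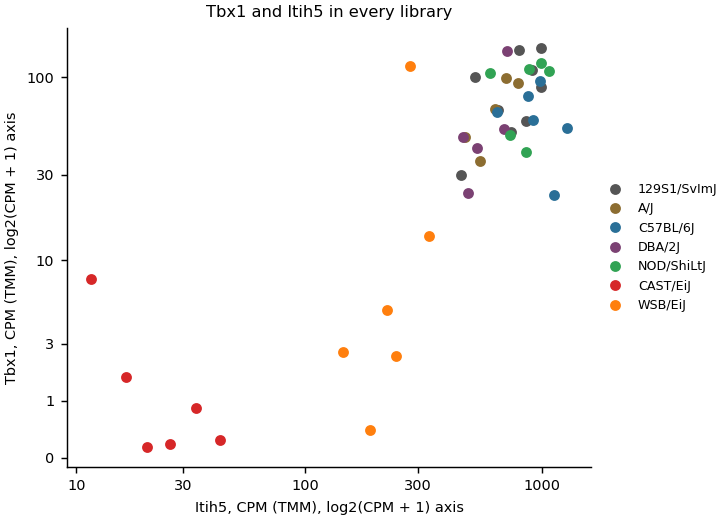
Tbx1 against Itih5 in each library (CPM, log2(CPM + 1) axes), coloured by strain. CAST/EiJ libraries were low in both genes, and the WSB/EiJ library at 115 CPM of Tbx1 stood apart from the other 5 in Tbx1 but not in Itih5.

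Tbx3 was most like Vcl (r = 0.77), Ece1 (0.65), Ptpn23 (0.64), Itga1 (0.64) and Sh3bp4 (0.63), and these held after strain means were taken off (0.68 to 0.76). Of these, Vcl, Ece1, Ptpn23 and Itga1 had their highest value in WSB/EiJ and Sh3bp4 in CAST/EiJ. Their lowest values were in 129S1/SvImJ for Vcl, Ece1, Ptpn23 and Sh3bp4 and in DBA/2J for Itga1. For Vcl, Ptpn23 and Sh3bp4, but not Ece1, the lowest value was in the library with the lowest Tbx3. WSB/EiJ and 129S1/SvImJ also held the libraries with the highest and lowest Tbx3 (442 and 76.4 CPM). Taking off strain means keeps both libraries in, and their weight in r was not tested. Among the genes most like Tbx2 were Xpo5 (0.72), Ephb4 (0.72), Osbpl11 (0.70) and Trim35 (0.68), with 0.67 to 0.70 after strain means were taken off. Each had its lowest value (0.0347, 54.9, 3.64 and 8.95 CPM) in the same 129S1/SvImJ library that held 0 counts of Tbx2. The weight of that library in r was not tested either. Ece1, which cleaves the endothelin precursor, and Ephb4, a receptor that marks veins, are genes of EC, and Vcl and Itga1 belong to cell adhesions. Tbx4 was most like 2610306M01Rik (0.64), Klhl13 (0.62), Mrps24 (0.59), Tm7sf2 (0.59) and Dnah9 (0.56). Between members, r was 0.40 for Tbx2 and Tbx3 and lay from -0.15 to 0.12 for the other pairs.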

How the data were processed

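The table deposited by the authors held raw counts per gene in 43 libraries. Per the study's methods, HISAT2 (2.1.0) placed the reads on mm10, SAMtools (1.9) handled the alignments and featureCounts of Subread (1.4.4) summed them per gene. Reads of strains that differ from the reference were aligned to the same genome, and the effect on counts was not tested. Groups were taken from the sample labels.

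A gene entered the tests if any library held 0.5 CPM of it or more (29120 of 54532 genes, or 27529 among male libraries). Counts were scaled by TMM and tested with edgeR's quasi-likelihood test (edgeR 4.0.16, limma 3.58.1, R 4.3.3) with Benjamini-Hochberg adjustment at 0.05, two-sided and without covariates. DESeq2 (1.42.0) was an alternative. CPM in the text were scaled over all 43 libraries. Counts of 3 were used as the floor, and intervals from counts cover counting error only.

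The members and lists were chosen with earlier results of these data known. Named genes were the members, every listed gene that passed a test, up to 3 others per list by mean CPM, the 5 genes most like each member by Pearson's r, and the 2 nearest genes on each side. A few genes that this rule or the marker lists name are not reported here.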

Additional observations from a re-analysis of the deposited data

Results flagged for a closer look

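Within each strain, the highest and lowest library of each member was compared with the others by Dixon's ratio on CPM. In 6 of 28 groups a library lay beyond the critical value. Chance passes that value in about 1 of 20 groups only where values are normally distributed. Several groups were near the floor, so the 6 are not read against that rate. The ratio compares libraries within a strain and is no test between strains. For Tbx1 these were the WSB/EiJ female hippocampus library (115 CPM from 472 counts, next 13.8), the CAST/EiJ male cortex library titled low (7.78 CPM from 28 counts, next 1.66) and the DBA/2J male cortex library titled high (139 CPM, next 53.2). For Tbx3 they were the WSB/EiJ female cortex library, the highest of its strain at 442 CPM (next 175), and the DBA/2J female hippocampus library, the lowest of its strain at 103 CPM (next 202). For Tbx4 it was the DBA/2J female hippocampus library, whose 0.0537 CPM came from 3 counts while the other 4 libraries of the strain had 0, so that the ratio was at its maximum by construction.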

How the results depend on the processing

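The mean of Tbx1 in WSB/EiJ fell from 23.2 to 4.87 CPM without its female hippocampus library and to 2.63 CPM in males only, moves smaller than the SD that this library sets. Of 188 recomputed differences of members for sex, region and title, 169 kept their direction and side of the threshold. The sign turned for Tbx3 between the sexes at -0.069 (DESeq2 size factors), -0.070 (DESeq2), -0.072 (titles high only), -0.038 (without NOD/ShiLtJ), -0.082 (without WSB/EiJ), -0.091 (long-inbred only) and -0.10 (hippocampus only), and for Tbx3 between regions at -0.088, -0.033 and -0.036 (without 129S1/SvImJ, A/J and CAST/EiJ) and -0.17 (female only). It turned for Tbx1 between the sexes at -0.10 (cortex only), -0.057 (titles high only) and -0.60 (rRNA-like share as a covariate) and between regions at -0.12 (male only), for Tbx2 between the sexes at 0.24 (without 129S1/SvImJ) and 1.16 (rRNA-like share), and for Tbx4 between titles at 0.15 (without A/J). None of these values passed, and the cause was not tested. Tbx3 between titles passed with DESeq2 (0.40).

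The origin difference of Tbx1 moved to -5.62 without WSB/EiJ, -4.89 in males and -4.68 without the WSB/EiJ female hippocampus library, a setting chosen after seeing the data, as were the fits of long-inbred strains only. It was smaller at -1.37 in females, -1.68 without CAST/EiJ and -1.95 in hippocampus, and stayed below 0 in all 17 other fits. The origin differences of Tbx2 (-0.083 to 0.91), Tbx3 (-0.21 to 0.30) and Tbx4 (-1.57 to 0.60) turned sign over the same fits. Gene counts moved by over 1.5 times for sex (830) to 532 and 515 (without 129S1/SvImJ and DBA/2J), 241 (cortex), 304 (hippocampus), 448 (titles high) and 59 (rRNA-like share). For region (22) they moved to 55 (DESeq2), 11 (without NOD/ShiLtJ), 7 (female only) and 60 (strain, sex and title as a block). For title (293) they moved to 640 (DESeq2), 195, 132, 148, 124 and 188 (without 129S1/SvImJ, A/J, C57BL/6J, CAST/EiJ and NOD/ShiLtJ), 27 (cortex), 5 (hippocampus) and 550 (strain and region as covariates). For origin (218) they moved to 395 (DESeq2), 40 (cortex), 68 (hippocampus), 44 (female) and 123 (male). No paired analysis was possible because no label ties a library to its mouse, and the block of strain, sex and title joins libraries of 1 stratum, not of 1 animal. Tbx4 was the member most often at the floor, with 3 or fewer counts in 13 of 43 libraries. These included the library with the smallest total (WSB/EiJ male hippocampus titled high, 1626534) and the one with the largest (DBA/2J female hippocampus, 49372356). The part of depth in this was not tested.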
